A study of Mus musculus with 12 samples.

Results

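The 10 genes described here were read on whole-ovary arrays of lethal yellow (LY) mice and their black littermates. They are 10 of the 18069 genes that had a probe annotated to 1 gene symbol, and every probe with such a symbol was used, which gave 13 of the 36227 probes on the array. The genes were Wfdc18, Dmkn, Tcf15, Bace2, Trim2, Nol4l, Ezr, Aif1l, Myh14 and Atp8b4. They were selected on their low signal in LY mice at 90 days of age, so the 90-day values below describe the choice and carry no test. The 180-day old mice took no part in that choice, and the tests of the 10 genes are on them.

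Each array held RNA from 1 ovary of 1 mouse, and no RNA was pooled. There were 4 groups of 3 mice: black (a/a) and LY (Ay/a) mice at 90 days and at 180 days of age, all female and all of the C57BL/6J background (the strain label spells it C56BL/6J). In the paper, the genotypes did not differ in body weight at 90 days, and LY mice were heavier at 180 days. All 4 groups received the GnRH antagonist Antide at 10 µg/g body weight on days 1 and 4, then equine chorionic gonadotropin (eCG) at 1 IU per 5 g (the series description gives 5 IU), and ovaries were taken on day 7, at 36 h after eCG. No group was left without Antide and eCG. The Ay allele is a deletion that places the agouti coding sequence under the promoter of the neighboring gene Raly, so agouti is made in most tissues. The ovaries had been trimmed of fat and connective tissue, and they contain follicles, stroma, vessels and the surface epithelium together, so fewer cells of a type and less RNA per cell cannot be told apart.

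A value of 1 unit is the median spot of its array. Agouti read 95.7 to 99.2 units in the LY mice and 0.280 to 0.313 in the black mice at 90 days, and 96.7 to 111 against 0.169 to 0.368 units at 180 days, so every array carried the genotype on its label. Pairs of arrays from the same age had correlations of 0.962 to 0.987 in log2 values, and pairs from different ages 0.918 to 0.938. The 90-day and 180-day mice were run as separate sets of arrays. The effect of age and that of the set therefore cannot be told apart, and levels across ages are given without a test. In a principal component analysis, black replicate 1 lay apart on the second component and LY replicate 1 on the third, both at 90 days. Without the former the median log2 difference of the 13 probes at 90 days was -0.95, and without the latter it was -0.91, against -0.96 with all mice. At 180 days LY replicate 3 lay apart on the fourth component, and without it the median at that age was -0.18, against -0.17 with all mice.

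The ovary is covered by a single-layered surface epithelium and lies against the oviduct, whose lining is secretory and ciliated. Epithelial cells are joined by cadherin, claudin and desmosomal contacts, carry keratin filaments, and organize an actin cortex beneath their free surface. Granulosa cells are also an epithelium, joined mainly by N-cadherin and gap junctions, and nest inside the follicle. Wfdc18 and Dmkn encode secreted proteins of epithelia, and Ezr and Myh14 encode proteins of the epithelial cortex. Tcf15 is best known from paraxial mesoderm, Trim2 from neurons and Bace2 from protein cleavage at membranes, so the name epithelial covers only some of the 10 genes.

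To show what lies in front of the genes, promoter sequence is given for both secreted proteins and for ezrin. They were chosen because the secreted proteins have a TATAA close to the start site and ezrin does not. Each run is the 250 bases before an annotated start site in the RefSeq promoter table for GRCm38.p6, read 5′ to 3′ on the gene's strand. Capitals mark TATAA in the former and CCGCCC, the other strand of GGGCGG, in ezrin.
Wfdc18, chr11:83708754-83709003, plus strand: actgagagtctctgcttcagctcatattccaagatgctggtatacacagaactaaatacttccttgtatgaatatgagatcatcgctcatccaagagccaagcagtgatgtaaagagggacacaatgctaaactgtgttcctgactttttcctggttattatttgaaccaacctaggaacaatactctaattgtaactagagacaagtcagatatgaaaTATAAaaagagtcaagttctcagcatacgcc
Dmkn, chr7:30763506-30763755, plus strand: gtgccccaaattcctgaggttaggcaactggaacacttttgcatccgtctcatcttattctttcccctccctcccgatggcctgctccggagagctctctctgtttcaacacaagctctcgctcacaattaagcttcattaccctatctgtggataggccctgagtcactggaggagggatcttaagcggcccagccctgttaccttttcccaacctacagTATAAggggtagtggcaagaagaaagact
Ezr, chr17:6782781-6783030, minus strand: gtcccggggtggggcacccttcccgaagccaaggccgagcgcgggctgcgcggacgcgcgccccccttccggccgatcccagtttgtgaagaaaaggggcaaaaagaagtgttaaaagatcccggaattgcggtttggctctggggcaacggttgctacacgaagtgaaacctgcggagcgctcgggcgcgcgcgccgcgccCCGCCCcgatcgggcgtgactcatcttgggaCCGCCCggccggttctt

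TATAA began 31 bases before the start of Wfdc18 and 29 bases before that of Dmkn. In ezrin the CCGCCC runs began 48 and 17 bases before the start. The GC content was 38.4% for Wfdc18, 50.8% for Dmkn and 67.2% for ezrin, against 52.4% over all windows. Dmkn had other annotated starts, with windows of 50.8% and 57.6% GC. Only its first listed window is shown, and TATAA was not in all of them. Entries were found for 8 of the 10 genes, in 15 windows, and none for Tcf15 and Bace2. Both strands were searched for 3 motifs, which may overlap each other. TATAA was in 4 of the 15 windows (Wfdc18, Dmkn and Atp8b4) against 22.8% of all 32851 windows, GGGCGG in 6 (Trim2, Nol4l, Ezr and Aif1l) against 32.7%, and CANNTG, the E-box bound by bHLH factors such as Tcf15, in 8 (Dmkn, Trim2, Myh14 and Atp8b4) against 66.2%. These are matches of letters only.

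Wfdc18 is a small secreted protein of the whey acidic protein four-disulfide core family, whose members include protease inhibitors. In the 90-day black mice its probe read 2.49, 3.62 and 2.37 units, and in the 90-day LY mice 0.552, 0.637 and 0.959 units. Every LY mouse lay below every black mouse, at a mean fold of 3.98 (folds and ratios here are those of means taken on the log2 scale). At 180 days the black mice read 0.851, 0.858 and 0.828 units and the LY mice 0.879, 0.871 and 0.926. The older groups lay within a narrow band, LY just above black, and close to the 90-day LY level rather than the 90-day black level. The 180-day log2 difference was 0.08 ± 0.07 (SE, n = 3 mice per group), with a 95% interval of -0.10 to 0.25 and a limma adjusted p of 0.635, and it was 0.05 without LY replicate 3.

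Dmkn (dermokine) is secreted by differentiating keratinocytes. Its probe read 2.60, 1.93 and 2.70 units in the 90-day black mice and 0.792, 0.680 and 0.822 units in the 90-day LY mice. The groups did not overlap, and the mean fold was 3.13. In the older mice the black values were 1.26, 1.32 and 1.42 units and the LY values 0.928, 1.5 and 1.13 units. Here the groups overlapped because of LY replicate 2. The log2 difference at 180 days was -0.20 ± 0.18 (SE, n = 3 per group), with an interval of -0.63 to 0.23 (limma adjusted p = 0.622). It rested on single mice, at -0.04 without LY replicate 1 and -0.38 without LY replicate 2.

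Among the cytoskeletal proteins, ezrin (Ezr) ties the plasma membrane to actin in microvilli. It gave 15.1, 14.8 and 12.7 units in 90-day black mice against 8.77, 8.0 and 8.20 units in 90-day LY mice, a mean fold of 1.70. Values in the 180-day black mice were 11.7, 10.1 and 11.9 units, and in the 180-day LY mice 9.01, 9.60 and 10.0 units. LY was below black in every mouse at both ages, and at 180 days the nearest mice of the groups almost touched. The 180-day difference in log2 was -0.23 ± 0.10 (SE), the interval -0.47 to 0.01 and the limma adjusted p 0.353.

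Aif1l, an actin-bundling relative of allograft inflammatory factor 1, read 6.25, 6.33 and 5.90 units in 90-day black mice. The 90-day LY mice read 3.62, 3.63 and 3.69 units, with less spread than those mice had on the other 12 probes. At 180 days black mice read 2.97, 2.38 and 2.63 units and LY mice 2.28, 2.04 and 1.96 units. All 4 groups stood apart without overlap, as they did for ezrin, but here in the order 90-day black, 90-day LY, 180-day black, 180-day LY. The log2 difference between LY and black was -0.76 at 90 days and -0.34 ± 0.11 (SE) at 180 days, with an interval of -0.61 to -0.07 and a limma adjusted p of 0.289.

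Myh14, the heavy chain of nonmuscle myosin IIC, read 1.73, 1.68 and 1.62 units in 90-day black mice and 1.10, 1.22 and 1.12 units in 90-day LY mice. The corresponding 180-day values were 1.53, 1.61 and 1.53 units in black and 1.21, 1.27 and 1.23 units in LY mice. Within each genotype the values were close at both ages, with LY lower in all mice. Its mean fold of black over LY was 1.46 at 90 days and 1.26 at 180 days. At 180 days the log2 difference was -0.33 ± 0.07 (SE, n = 3 per group), with an interval of -0.51 to -0.16. Its limma adjusted p of 0.239 was the lowest of the 13 probes and did not pass the threshold of 0.05.

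**Figure D1:**
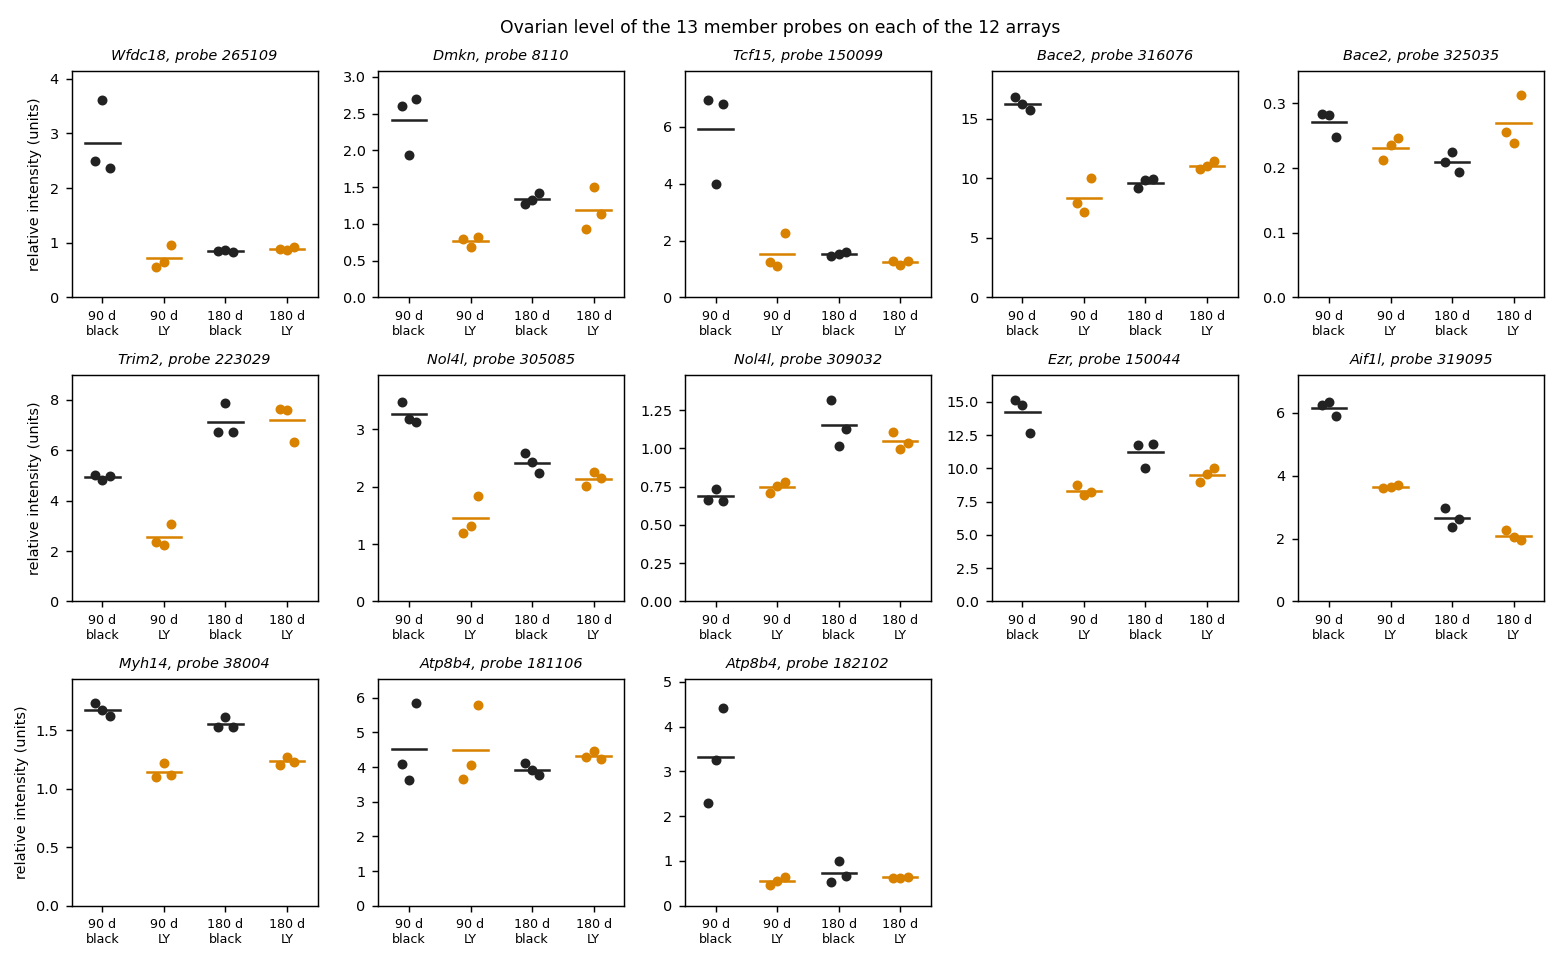
Relative intensity (vertical axis, units of the array median, from 0) of the 13 probes of the 10 genes on each of the 12 arrays. Points are mice, horizontal lines are group means of 3 mice, black marks black mice and orange marks LY mice. At 90 days LY lay wholly below black in 11 probes, and at 180 days in 4.

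Bace2, a membrane aspartyl protease related to the beta-secretase that cuts the amyloid precursor protein, had a pair of probes. Probe 316076 read 16.8, 16.2 and 15.8 units in 90-day black mice and 7.96, 7.14 and 10.0 units in 90-day LY mice. At 180 days it read 9.17, 9.85 and 9.94 units in black mice and 10.8, 11.0 and 11.5 units in LY mice. LY was thus wholly below black at 90 days and wholly above at 180 days. The 180-day log2 difference was 0.20 ± 0.08 (SE), with an interval of 0.02 to 0.38 (limma adjusted p = 0.327). Probe 325035 was dim, with group means between 0.209 and 0.271 units, close to the 0.2 units required for testing. As on probe 316076, LY lay wholly below black at 90 days and wholly above at 180 days. The log2 differences were -0.23 at 90 days and 0.35 ± 0.13 (SE) at 180 days (interval 0.05 to 0.66, limma adjusted p = 0.314). At 90 days the nearest mice almost touched, at 0.246 units in LY and 0.248 units in black.

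Trim2 is a RING-type ubiquitin ligase. It gave 5.00, 4.83 and 4.96 units in 90-day black mice and 2.36, 2.25 and 3.06 units in 90-day LY mice, a mean fold of 1.95. The 180-day black mice read 6.73, 7.89 and 6.73 units and the 180-day LY mice 7.62, 7.60 and 6.31 units. It was the only one of the 10 genes in which the 180-day groups read above the 90-day black mice on the probe that separated LY from black, and the older genotypes overlapped. The log2 difference at 180 days was 0.01 ± 0.12 (SE), with an interval of -0.27 to 0.29 and a limma adjusted p of 0.971, and it lay between -0.04 and 0.10 with each mouse left out.

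Atp8b4, a P4-type ATPase of the family that moves phospholipids between membrane leaflets, had probes that disagreed. Probe 182102 read 2.29, 3.26 and 4.41 units in 90-day black mice and 0.463, 0.546 and 0.632 units in 90-day LY mice, a mean fold of 5.91 and the widest among the 13 probes. The other probe, 181106, read 4.08, 3.63 and 5.83 units in 90-day black mice and 3.66, 4.05 and 5.79 units in 90-day LY mice. These groups overlapped fully, with a log2 difference of -0.00. At 180 days probe 182102 read 0.534, 1.01 and 0.668 units in black and 0.627, 0.622 and 0.644 units in LY mice, which overlapped. Probe 181106 read 4.10, 3.90 and 3.76 units in black and 4.30, 4.45 and 4.24 units in LY mice, with LY higher in all mice. The limma adjusted p at 180 days was 0.741 for 182102 (log2 difference -0.17, interval -0.72 to 0.37) and 0.424 for 181106 (0.14, interval -0.04 to 0.32). Probe 182102 was at -0.38 without black replicate 1 and at 0.08 without black replicate 2. The low 90-day signal of Atp8b4 thus rests on 1 probe of the pair.

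Tcf15 (paraxis) is a basic helix-loop-helix (bHLH) transcription factor of paraxial mesoderm and somites. Its probe read 6.97, 4.00 and 6.80 units in 90-day black mice and 1.25, 1.11 and 2.26 units in 90-day LY mice, a mean fold of 3.92. At 180 days it read 1.45, 1.51 and 1.58 units in black mice and 1.28, 1.14 and 1.29 units in LY mice. The older black mice were at the level of the younger LY mice, and LY lay below black in every mouse at both ages. The 180-day log2 difference was -0.29 ± 0.09 (SE), with an interval of -0.50 to -0.08 (limma adjusted p = 0.273).

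Nol4l, a relative of nucleolar protein 4 whose role is little known, also had probes that disagreed. Probe 305085 read 3.47, 3.18 and 3.13 units in 90-day black mice and 1.2, 1.32 and 1.84 units in 90-day LY mice, a mean fold of 2.28. Probe 309032 read 0.665, 0.737 and 0.656 units against 0.710, 0.755 and 0.783 units in the same mice. The former separated the genotypes, and the latter overlapped with a log2 difference of 0.13, LY over black. Probe 305085 read 2.59, 2.42 and 2.24 units in 180-day black and 2.01, 2.26 and 2.14 units in 180-day LY mice, and probe 309032 read 1.31, 1.02 and 1.13 units against 1.11, 0.998 and 1.03 units. In these older mice both probes overlapped. Their log2 differences were -0.18 (interval -0.40 to 0.04, limma adjusted p = 0.421) for 305085 and -0.13 (interval -0.41 to 0.14, limma adjusted p = 0.610) for 309032. The latter was at -0.04 without black replicate 1 and -0.22 without black replicate 2.

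Over the 13 probes, all of which passed the filter on dim signal in at least 1 of the 4 groups, LY lay wholly below black at 90 days in 11 probes and in all 10 genes. Among all probes this was so for 9.54%, but the choice of the genes fixes their count and nothing is read from it. The remaining 2 probes were the second probes of Nol4l and Atp8b4. The median log2 difference at 90 days was -0.96 over the 13 probes and -0.00 over all probes. The mean folds of black over LY ran from 1.17, for the dim Bace2 probe, to 5.91 among the 11 separated probes. Of the genes, Myh14 (mean fold 1.46) and Aif1l (1.69) had the smallest fold on their brighter or sole probe that separated LY from black.

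At 180 days none of the 13 probes passed an adjusted p of 0.05 in limma. Of all 31463 probes tested, 2 passed, or 0.00636%, so the count of 0 is at the background. At an unadjusted p under 0.05 there were 5 of the 13, against 14.4% of all probes, with LY lower for Tcf15, Aif1l and Myh14 and higher for both Bace2 probes. LY lay wholly below black in 4 probes (Tcf15, Ezr, Aif1l and Myh14), against 8.36% of all probes, and wholly above in 4 (Wfdc18, both Bace2 probes and Atp8b4 probe 181106), against 14.2%. The other 5 overlapped. The estimate was lower in LY for 8 probes and higher for 5. The median was -0.17 over the 13 probes and 0.03 over all probes. With 3 mice per group, an exact permutation test of a single probe cannot give a p below 0.10, and the intervals above still hold log2 differences as low as -0.72 (Atp8b4) and as high as 0.66 (Bace2).

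**Figure D2:**
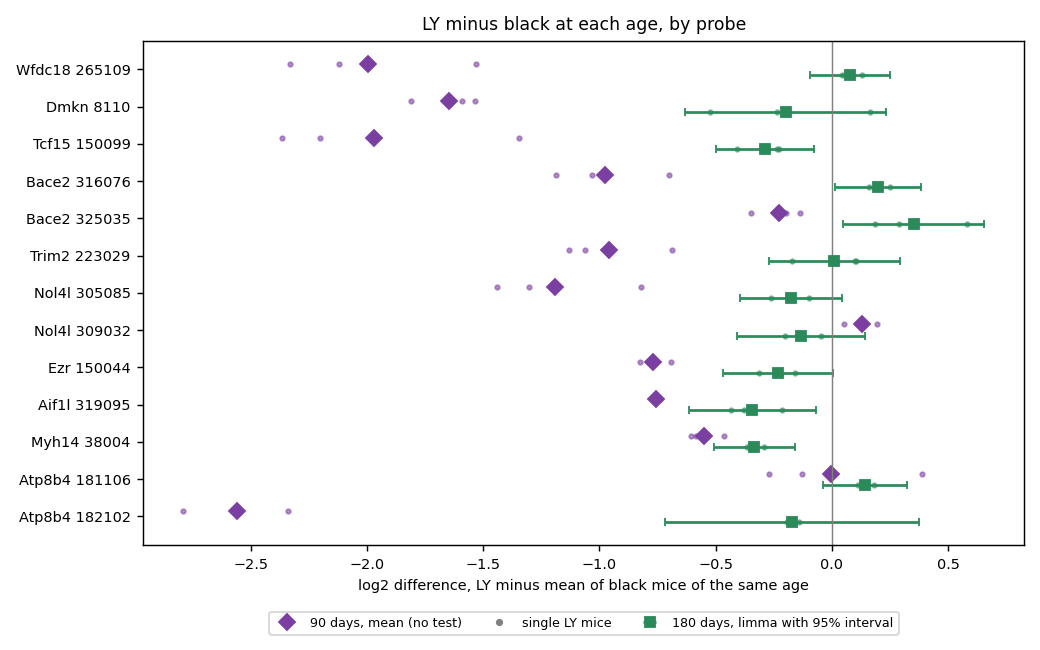
Log2 difference of LY from the mean of black mice of the same age (horizontal axis) for each of the 13 probes. Diamonds are 90-day means, which chose the genes and have no test, squares are 180-day estimates with 95% limma intervals, and small points are single LY mice. The probes spread from -2.56 to 0.13 at 90 days and from -0.34 to 0.35 at 180 days.

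The levels across the 4 groups were set apart mainly by the 90-day black mice. They had the highest mean in 11 probes and 9 genes, the exception among the genes being Trim2. In 9 of the 11 separated probes all 3 of these mice lay above all 9 other mice, the exceptions being Trim2 and the dim Bace2 probe. The 90-day LY mice lay below all others in 4 of the 11 (Dmkn, Trim2, Nol4l and Ezr) and had the lowest mean in 8. The ratio of 90-day black to 180-day black means was 4.51 for Atp8b4 (182102), 3.80 for Tcf15, 3.28 for Wfdc18, 2.33 for Aif1l, 1.79 for Dmkn, 1.69 for Bace2 (316076), 1.35 for Nol4l (305085), 1.27 for Ezr, 1.08 for Myh14 and 0.695 for Trim2. Leaving aside the dim Bace2 probe and the second probes of Nol4l and Atp8b4, the neighbors in the order of means that overlapped were the 180-day black and 90-day LY mice for Wfdc18, Tcf15 and Bace2 (316076), the 180-day genotypes for Dmkn, Trim2, Nol4l and Atp8b4 (182102), and the LY mice of both ages for Myh14 and Atp8b4 (182102).

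Single mice did not spread evenly. Among the 90-day LY mice, replicate 3 had the highest value in 9 of the 11 separated probes, and among the 90-day black mice replicate 1 was highest in 7. Tcf15 and Wfdc18 carried the effect of LY replicate 3 most plainly, at 2.26 and 0.959 units, against 1.25 and 0.637 units for the next LY mouse. At 90 days the spread within a group was widest for probe 182102 of Atp8b4 and for Tcf15 in black mice (coefficients of variation 31.9% and 28.1%) and for Tcf15 in LY mice (40.7%).

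Other genes with a similar pattern over the mice were then listed. The measure was the Pearson correlation, over the 12 arrays after centering each probe within its age, with the mean profile of the members, and 16013 genes were compared. The points share arrays, and the profile holds the contrast that chose the genes, so the values are descriptive. Member probes correlated with the mean of the others at 0.838 to 0.980, except Bace2 probe 325035 (0.373), Nol4l probe 309032 (-0.36) and Atp8b4 probe 181106 (0.109). The 8 genes outside the set with the highest correlation were Tk2 (0.977), Slc7a4 (0.960), Cish (0.959), Mmgt2 (0.948), Cfap65 (0.947), Pgpep1 (0.946), Scx (0.945) and Tmie (0.942). Cish, an inhibitor of cytokine receptor signaling, read 4.28 ± 0.12 units in 90-day black and 1.5 ± 0.76 units in 90-day LY mice (SD, n = 3), and 1.00 ± 0.11 and 0.797 ± 0.09 units at 180 days. Scx (scleraxis), a bHLH factor of tendon and a close relative of Tcf15, read 1.96 ± 0.67 and 0.459 ± 0.32 units at 90 days, and 0.653 ± 0.05 and 0.507 ± 0.01 units at 180 days. In both, the 90-day black mice had the highest level, as in 9 of the 10 genes.

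**Figure D3:**
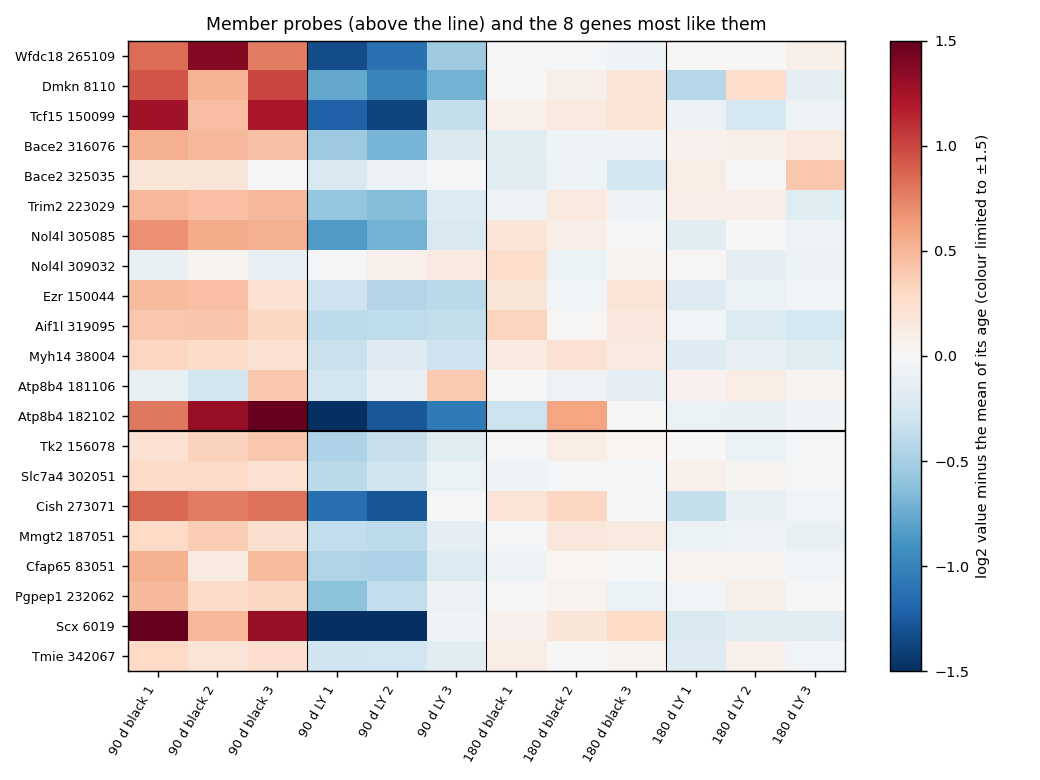
Log2 value of each probe minus its mean over the 6 mice of the same age (color, red above and blue below, limited to 1.5 in either direction), for the 13 probes (above the line) and the 8 genes most like them, over 12 arrays. Color is strong in the 90-day mice and pale in the 180-day mice.

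Epithelial markers were read from lists that the genes were not part of. The lists were chosen with earlier results of these data known, and their 90-day values come from the contrast that chose the genes. Of 26 tested genes of epithelial junctions and keratins, the estimate was lower in LY for 18 at 90 days and 23 at 180 days. The median log2 difference was -0.38 at 90 days and -0.18 at 180 days, against -0.00 and 0.03 over all probes. LY lay wholly below black in 10 of the 26 at 90 days, against 9.54% of all probes, and in 4 at 180 days, against 8.36%. It lay wholly above in 0 at 90 days, and in 2 at 180 days (Ovol1 and Grhl2), against 14.2%. At 90 days the estimate was higher in LY for Cldn4, Dsp, Esrp1, Ovol1, Grhl1, Marveld3, Cgn and Crb3. None of the 26 passed limma at either age (at 90 days 2 of all 31500 probes tested passed, or 0.00635%). The defining markers Cdh1 (0.956 to 1.38 units in black, 0.737 to 1.06 in LY) and Epcam (4.32 to 7.14 and 3.89 to 5.01 units) overlapped between genotypes at 90 days. Krt8 (1.66 to 2.00 and 1.03 to 1.39 units), Krt19 (5.64 to 7.77 and 4.00 to 4.73 units) and Krt7 (10.11 to 16.15 and 8.54 to 8.94 units) did not. At 180 days LY lay wholly below black for Krt8 and for Epcam (4.07 to 4.41 and 2.35 to 3.21 units), and Krt19, Krt7 and Cdh1 overlapped. The summed level of the list ran from 83.1 to 104 units in 90-day black, 69.9 to 82.4 in 90-day LY, 94.9 to 108 in 180-day black and 81.6 to 97.6 in 180-day LY mice.

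For ovarian surface epithelium, 9 of 9 tested markers had a lower estimate in LY at 90 days, with a median of -0.19, and 3 lay wholly below black (Upk1b, Msln and Muc16), against 9.54% of all probes. Their summed level was 34.0 to 38.2 units in 90-day black and 27.4 to 30.9 units in 90-day LY mice, and 38.4 to 43.7 against 38.3 to 44.4 units at 180 days. In 8 of 9 tested oviduct epithelium markers the 90-day estimate was lower in LY (median -0.79), with 6 wholly below against the same 9.54%. Among the 6 were Ovgp1, the oviduct glycoprotein (3.73 to 5.70 and 2.53 to 2.96 units), Sox17 (2.81 to 3.38 and 2.48 to 2.58 units) and Ltf, lactoferrin (1.39 to 5.93 and 0.720 to 0.831 units). Spag6l, also among them, reached a mean of 0.2 units only in 90-day black mice (0.327, against 0.097 in 90-day LY mice). Foxj1 overlapped at 90 days (0.066 to 0.196 and 0.057 to 0.107 units). It reached a mean of 0.2 units only in 180-day black mice, which ran from 0.0699 to 2.77 units. The summed oviduct level was 13.1 to 16.2 units in 90-day black and 8.10 to 8.20 units in 90-day LY mice, and 7.12 to 9.45 against 6.13 to 6.77 units at 180 days. This sum was higher in each 90-day black mouse than in any other mouse. Single markers did not all share that order: Ltf in 90-day black mice overlapped 180-day black mice (0.707 to 1.41 units), and Ccdc39 overlapped between the 90-day genotypes (0.866 to 1.00 units in black, 0.866 to 1.05 in LY). The part of oviduct or surface epithelium in the values of the 10 genes was not tested.

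Other cell types were read in the same way. Macrophage and leukocyte markers had a median of 0.03 at 90 days, smooth muscle -0.08, endothelium -0.19, granulosa cells 0.25 and oocytes 0.10. Theca cells (3 markers) had a median of -0.37, luteal cells (3 markers) -0.82 and adipocytes (3 markers) -0.66. At 180 days the medians were 0.21 for macrophages and leukocytes, -0.11 for smooth muscle, 0.08 for endothelium, -0.41 for granulosa cells (6 of 7 lower in LY), -0.35 for oocytes (6 of 7 lower), 0.49 for theca cells (0 of 3 lower), -0.48 for luteal cells and 0.05 for adipocytes. Granulosa, oocyte and theca medians thus had opposite signs at the 2 ages, and their part in the 180-day values of the 10 genes was not tested. Luteal Ptgfr, the prostaglandin F receptor, read 10.2 to 13.6 units in 90-day black and 3.67 to 6.23 units in 90-day LY mice. In the same mice luteal Akr1c18 also lay wholly below (2.42 to 4.63 and 1.47 to 1.96 units), and Hsd3b1 overlapped (200 to 232 and 165 to 206 units). Adipocyte sums ran from 6.75 to 51.5 units among the 90-day black mice themselves. Over all 18 lists, 154 genes were tested and none passed limma at 180 days or at 90 days. At an unadjusted p under 0.05 there were 27 at 180 days, against 14.4% of all probes, and 36 at 90 days. The share of all probes was not counted at 90 days, so nothing is read from the 36.

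**Figure D4:**
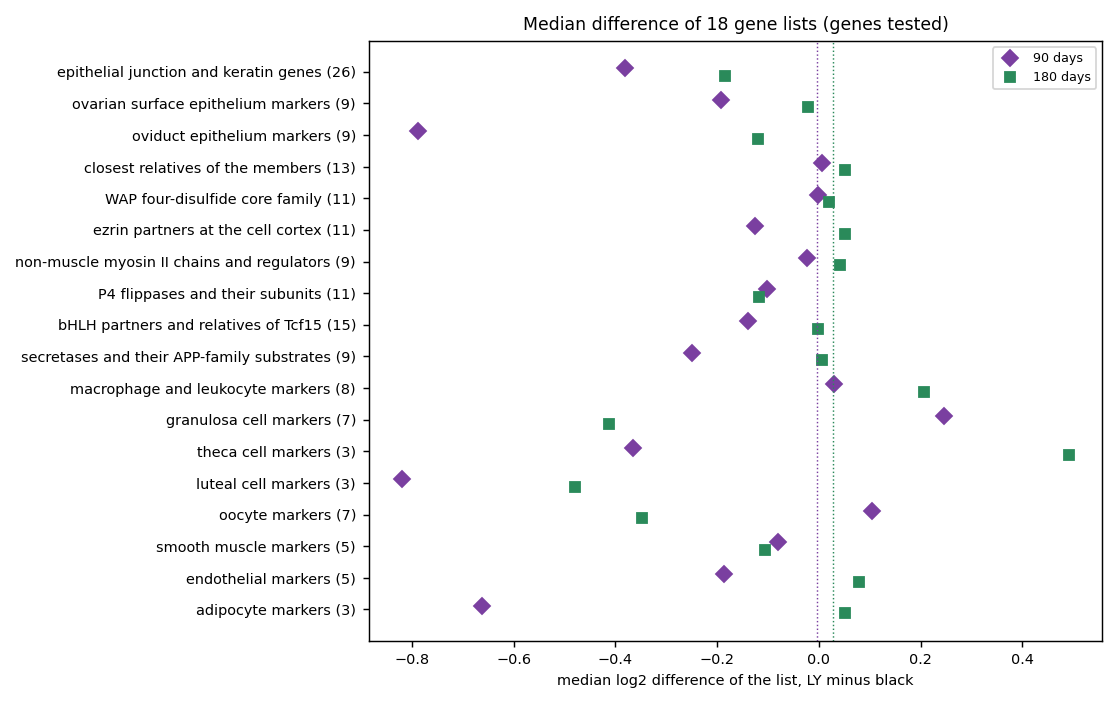
Median log2 difference of LY from black (horizontal axis) in 18 gene lists, with the number of genes tested in brackets. Diamonds are 90 days, squares 180 days, and dotted lines the medians over all probes at each age. Oviduct (-0.79) and luteal (-0.82) markers lie lowest at 90 days.

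The closest relatives of the 10 genes went in both directions. Of 13 with a tested probe, 6 had a lower estimate in LY at each age, with medians of 0.01 at 90 days and 0.05 at 180 days. At 90 days 4 lay wholly below black (Scx, Sbsn, Bace1 and Myh9), against 9.54% of all probes, and 1 wholly above (Atp8b3). Scx, described above, had the lowest log2 difference, at -2.24. Sbsn (suprabasin), the neighbor of Dmkn on chromosome 7 and like it a product of keratinizing epithelium, read 5.01 to 7.92 units in 90-day black and 2.69 to 4.32 units in 90-day LY mice, then 5.35 to 8.81 units in 180-day black and 10.8 to 14.1 units in 180-day LY mice. It was wholly lower in LY at 90 days and wholly higher at 180 days (limma adjusted p = 0.252 at 180 days). Msn and Rdx, which share the membrane-to-actin role of ezrin, had 90-day log2 differences of 0.01 and 0.24. Myh9 and Myh10, the other nonmuscle myosin II heavy chains, had -0.27 and 0.13, and Aif1, the macrophage relative of Aif1l, had 0.02. Bace1 had -0.33 with LY wholly below black, and Trim3, Nol4 and Tcf23 had -0.06, 0.07 and 0.05. Of the flippases related to Atp8b4, Atp8b2 had -0.73 with overlapping groups, and Atp8b3 was dim, below 0.2 units in every group mean but 90-day LY, and its 90-day difference of 2.76 includes a black value raised to the floor of 0.01 units.

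Wider gene families around the members were also counted. They share genes with the lists above, among them Scx, Bace1, Myh9, Atp8b3 and Wfdc2, so the counts are not separate. Of 11 tested whey acidic protein family genes the 90-day median was -0.00, and 2 lay wholly below black. These were Slpi, a secreted protease inhibitor (5.18 to 10.1 and 1.92 to 3.21 units), and Wfdc2 (0.514 to 1.80 and 0.266 to 0.367 units). Of 15 partners and relatives of the bHLH factor Tcf15, 4 lay wholly below (Tcf4, Scx and the homeobox genes Meox1 and Meox2), with a median of -0.14. Meox2 reached a mean of 0.2 units only in 90-day black mice (0.329), and its other group means were 0.0907 to 0.117 units. The 11 ezrin partners had a median of -0.13 with 2 wholly below, the 9 myosin II chains and regulators -0.02 with 1, the 11 flippases and subunits -0.10 with 3, and the 9 secretases and substrates -0.25 with 3. Each count stands beside the 9.54% of all probes that lay wholly below at 90 days. LY lay wholly above black at that age in 3 of the flippases and subunits and in 1 whey acidic protein family gene. It did so in 0 genes of the other lists in this paragraph. The share of all probes wholly above was not counted at 90 days.

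Position was not used in the choice. Of the 10 genes, 4 lie on chromosome 2 in GRCm38.p6 (Tcf15, Nol4l, Aif1l and Atp8b4), the chromosome that carries agouti, against 8.11% of the 16323 tested genes with a chromosome. Between agouti and each of them lie 30 protein-coding genes for Nol4l, 71 for Tcf15, 290 for Atp8b4 and 1152 for Aif1l. In the stretch from just before Tcf15 to just past agouti, 60 other genes were measured. Their median log2 difference at 90 days was -0.02, and 15 of them lay wholly below black, against 9.54% of all probes. These 15 include Raly, much of whose coding region the paper places in the Ay deletion, and Eif2s2, which lies between Raly and agouti. Their log2 differences were -0.73 and -0.65 at 90 days and -0.81 and -0.43 at 180 days. Dmkn and Myh14 are on chromosome 7, Wfdc18 on 11, Bace2 on 16, Trim2 on 3 and Ezr on 17.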

How the data were processed

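One ovary of each of 12 mice was hybridized singly to a CodeLink mouse array. After a GenePix scan, the authors used the CodeLink software for background correction and GeneSpring 7.0 to set each slide to its median, and the deposited values are linear relative intensity values. A gene-wise median normalization named in the methods is not present in them. Array medians were 1.00 to 1.04, with 166 to 503 missing and 67 to 144 negative values per array. Values were rescaled to an array median of 1, raised to a floor of 0.01 units and taken to log2. Arrays have no read depth, and the number of mice limits the precision. Probes whose mean reached 0.2 units in any group were tested with limma 3.58.1 in R 4.3.3, two-sided with Benjamini-Hochberg adjustment over all tested probes, on the 6 arrays of an age (residual degrees of freedom 4, prior 2.2 at 180 days). The code was tested on simulated data. Groups came from the sample labels, and replicates are separate mice, so p-values measure the spread between mice.

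Gene names came from the platform annotation. Of the probes, 21615 carry 1 gene name, 681 several and 13931 none, and only the former were named. All 10 genes matched GRCm38.p6, from which chromosomes and gene order came, while the build behind the probes is not given in the sources used here. Members and lists were chosen with earlier results of these data known. The genes named are the members with all probes, their closest relatives, the 8 most alike genes, agouti and, of other lists, only some of their first 4 measured genes. Epcam, Ltf, Ccdc39, Spag6l, Meox1, Meox2, Raly and Eif2s2 lie outside that rule and were chosen after their values were seen. The same holds for Grhl2 and for the epithelial genes named as higher in LY at 90 days. A list used the brightest probe of a gene. Alternatives covered the samples in the fit, floor, pseudocount, filter, normalization, variance model, array weights, the methods' t-test, the replicate block and each mouse left out.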

Additional observations from a re-analysis of the deposited data

Results flagged for a closer look

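In 3 probes every LY mouse lay below every black mouse at 90 days and above every black mouse at 180 days. The difference between the ages was not tested, since the 90-day values chose the genes. The 180-day log2 differences were 0.0769 for Wfdc18 (after -1.99 at 90 days), 0.20 for Bace2 probe 316076 (after -0.97) and 0.35 for Bace2 probe 325035 (after -0.23), and none of the 3 passed limma at 180 days. No group here holds 4 or more mice, so the test for a single outlying value, which needs at least 4, was not run.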

How the results depend on the processing

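No member probe and no list gene passed at 180 days under any of the 17 alternatives, and the lowest adjusted p over them was 0.104, with a group mean of at least 1 unit required. At 90 days the median over the member probes lay between -1.10 and -0.87, which only describes the values that chose the genes. At 180 days it stayed between -0.18 and -0.13. Among all probes 2 passed, but 14 with the spread pooled over both ages, 28 under the stricter filter, 62 with an intensity trend, 3 after quantile normalization, 1 without a filter, 1 with the higher floor, 0 by the methods' t-test (4216 unadjusted) and 1 to 3 with a mouse left out. Replicate numbers did not pair the mice: deviations of same-numbered mice correlated at 0.148, 0.07 and 0.05 at 90 days and at -0.00, -0.07 and -0.06 at 180 days. With the replicate block 0 member probes and 1 of all probes passed.

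The sign turned in 6 of 220 values at 180 days. Trim2 was at -0.00918 after quantile normalization and ran from -0.0355 to 0.102 with each mouse left out, and Atp8b4 probe 182102 from -0.379 to 0.0785, the latter without black replicate 2. At 90 days 4 of 155 turned, all for Atp8b4 probe 181106, which was at 0.0622 after quantile normalization and ran from -0.200 to 0.196 with each mouse left out, above 0 without black replicate 3, LY replicate 1 or LY replicate 2. Aif1l at 90 days moved to -0.70 under quantile normalization. The cause was not tested. Dim probes such as Bace2 325035 limit what small differences can be read.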
